A study of Mus musculus with 6 samples.

Results

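Hmga1 and Hmga1b are a pair of mouse genes whose transcripts are near copies of each other. They were taken from the expression table by gene symbol, which found 2 rows among the 16978 genes listed. The pair was chosen by its measured values in this same treatment comparison, namely the counts, their decimals, FPKM and TPM of both genes in each library, so the levels of both genes in the 6 libraries are given as a description, with no test. The libraries were bulk RNAseq of bone marrow-derived macrophages (BMDM) that had been grown from the femurs of wild type C57BL/6 mice in medium with macrophage colony-stimulating factor at 25 ng/ml and collected on day 7. The treated group was 3 samples given recombinant IL17B, a cytokine of the IL17 family, at 200 ng/ml for 6 hours, and the control group was 3 samples given PBS, the vehicle. The comparison asks what IL17B on its own changes in macrophages. No label says whether the 3 samples of a treatment were separate cultures or animals, so the spread between them may be technical.

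HMGA1 is a small chromatin protein that lies in the minor groove of AT-rich DNA through short basic stretches called AT hooks, and it bends and opens DNA so that transcription factors can assemble there. In human cells it is best known at the interferon beta enhancer, where it works beside NF-κB, IRF and ATF2/c-Jun factors. It is abundant in embryonic, dividing and malignant cells. Hmga1b is annotated as a gene of its own on another chromosome.

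The RefSeq annotation of GRCm38.p6 places Hmga1 (gene ID 15361) at chr17:27556574-27563672 on the plus strand. Hmga1b (gene ID 111241) lies at chr11:120762794-120764392, also on the plus strand. In GENCODE M21, an annotation of the same build, Hmga1 has 17 transcripts of 524 to 2001 bases, while the Hmga1b transcript compared here is a single exon of 1626 bases that ends 27 bases further on than the RefSeq gene. The coding sequence of Hmga1b has 321 bases, or 107 codons without the stop codon, and is identical in every base to that of 5 of the 17 Hmga1 transcripts. It encodes the core of 3 AT hooks, which are shown because their printed bases alone cannot tell the genes apart. A read is longer than a printed stretch, so one from an Hmga1 transcript with another coding sequence may still differ from Hmga1b. The capitals mark the 12 bases that encode the arginine-glycine-arginine-proline core, the coordinates are those of Hmga1b, and the same 24 bases are found in all 17 Hmga1 transcripts.

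AT hook 1, chr11:120762958-120762981: cgaggcCGGGGCAGGCCAcgcaag
AT hook 2, chr11:120763054-120763077: agacctCGGGGCCGACCAaaggga
AT hook 3, chr11:120763132-120763155: aaaccaAGGGGCAGACCCaagaaa

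Outside the coding sequence the copies were almost as close. Against the Hmga1 transcript with the most sequence in common, 1602 bases of Hmga1b could be aligned with 3 substitutions and 0 insertions or deletions, an identity of 99.8%, and the last 24 bases of Hmga1b had no counterpart. Counted from 1 at the start of the Hmga1b transcript, with the Hmga1 base first, the substitutions are A657G, A784G and G1246T. All 3 lie in the exon of Hmga1b in its 3′ untranslated region, 238, 365 and 827 bases past the stop codon. These sites are printed because, with the last 24 bases, they are the places where a read of Hmga1b would differ from every Hmga1 transcript, and the capital in each 21-base stretch is the base that differs.

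Site 1 in Hmga1, chr17:27562719-27562739: ccgcagcccgAcctgctgcgc
Site 1 in Hmga1b, chr11:120763440-120763460: ccgcagcccgGcctgctgcgc
Site 2 in Hmga1, chr17:27562846-27562866: aaggggccccAgccccatctc
Site 2 in Hmga1b, chr11:120763567-120763587: aaggggccccGgccccatctc
Site 3 in Hmga1, chr17:27563308-27563328: gtgttgttttGtttttgttcc
Site 3 in Hmga1b, chr11:120764029-120764049: gtgttgttttTtttttgttcc

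The reads were single reads of 50 bases, so the transcripts were also compared in windows of 50 bases, 1 window starting at each base. Of the 1577 windows of Hmga1b, 1403 (89.0%) occur without a mismatch in an Hmga1 transcript. The other 174 are 3 runs of 50, 1 over each substitution, and 24 at the 3′ end. In the shorter RefSeq gene 150 of 1550 windows are in no Hmga1 transcript. With up to 2 mismatches allowed, 1553 of the 1577 windows (98.5%) match Hmga1. From the other side, 1403 of the 2553 distinct windows of the Hmga1 transcripts (55.0%) are in Hmga1b. A share this high is rare among protein-coding transcripts, the only ones searched for this count. It took in 13491 genes with a match in GENCODE and a summed count of 15 or more. Of these, 38 (0.282%) have at least the Hmga1b share of their windows in 1 gene at another locus. Another 8872 (65.8%) share no window with the protein-coding transcripts of any other gene. Pseudogenes and noncoding genes were left out.

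**Figure D1:**
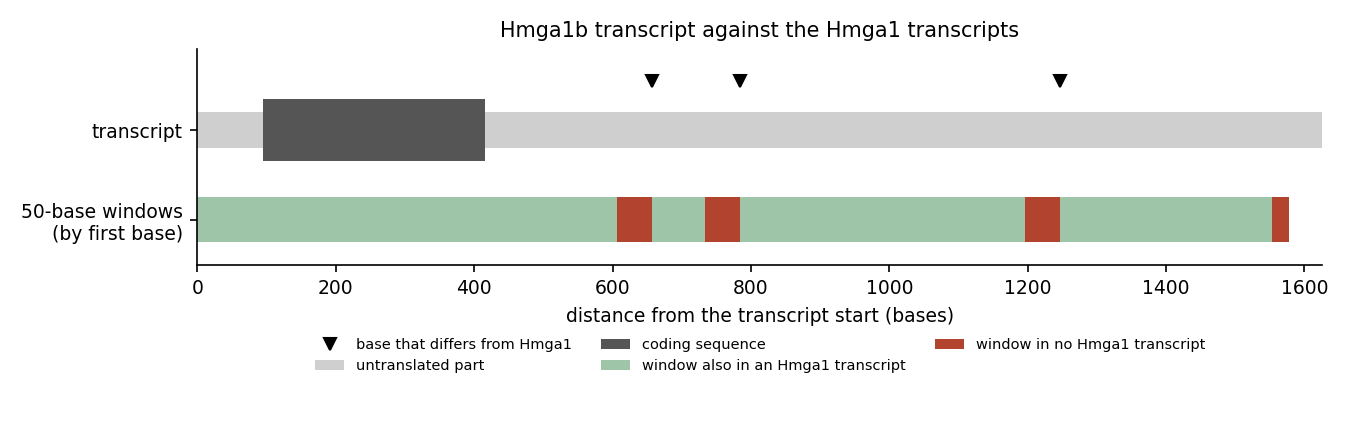
Map of the Hmga1b transcript by distance from its start in bases, with the coding sequence in dark grey, the untranslated parts in light grey and triangles at the 3 bases that differ from Hmga1. Below it, each 50-base window is placed by its first base and is green if it is also in an Hmga1 transcript (1403 windows) or red if it is in none (174 windows); the red windows sit before each triangle and at the 3′ end.

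The bases upstream of the RefSeq gene starts were not alike. The 250 bases before each RefSeq gene start are printed to show this, with every CG pair in capitals. The longest run of bases that these upstream stretches have in common, on either strand, is 7 bases.

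Hmga1, chr17:27556324-27556573: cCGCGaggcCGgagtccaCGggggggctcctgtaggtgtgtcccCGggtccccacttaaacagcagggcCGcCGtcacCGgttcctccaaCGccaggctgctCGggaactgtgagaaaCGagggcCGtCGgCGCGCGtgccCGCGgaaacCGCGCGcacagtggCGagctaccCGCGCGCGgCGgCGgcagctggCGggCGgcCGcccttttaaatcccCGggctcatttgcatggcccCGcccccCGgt
Hmga1b, chr11:120762544-120762793: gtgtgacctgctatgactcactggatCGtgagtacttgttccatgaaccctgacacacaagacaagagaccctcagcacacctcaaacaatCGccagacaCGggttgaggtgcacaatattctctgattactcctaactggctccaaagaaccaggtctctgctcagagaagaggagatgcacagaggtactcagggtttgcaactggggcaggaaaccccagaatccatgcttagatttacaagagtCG

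The Hmga1 stretch holds 34 CG pairs and is 72.8% G and C, and 3.53% of 32851 RefSeq upstream stretches of the same length hold at least as many CG pairs. The Hmga1b stretch holds 4 CG pairs and is 49.6% G and C, and 62.2% of the 32851 hold at least 4. RefSeq lists a further Hmga1 start 30 bases downstream, whose stretch holds 35 CG pairs. These counts describe the sequence and were set against no measurement of these libraries.

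The libraries were alike in depth, with totals between 20271450 and 20653371 estimated counts, and their normalization factors lay between 0.994 and 1.01. The 10 macrophage markers fixed for the check (Csf1r, Adgre1, Itgam, Cd68, Lyz2, Mertk, Fcgr1, Cd14, Spi1 and C1qa) were all tested, and their summed level ran from 29382 to 31124 CPM (counts scaled to library size) with IL17B and from 28724 to 30256 CPM with PBS. Libraries IL17B 2 and IL17B 3 stood apart in transcripts of hepatocytes: the summed level of 8 markers such as Alb was 0.343, 199 and 68.5 CPM in the IL17B libraries, against 0.146, 0.437 and 0.489 CPM in the PBS libraries. The summed level of 6 Schwann cell and stromal markers was 30.7, 16.9 and 15.9 CPM with IL17B and 39.2, 35.7 and 32.7 CPM with PBS. Of these, Sox10, Ngfr, Apod and Igfbp5 were far lower in IL17B 2 and IL17B 3 than in IL17B 1. Apod, for example, had 81.03, 2.18 and 4.77 counts with IL17B and 103.4, 59.99 and 75.89 counts with PBS. Dcn and Col1a1 did not have this order within the IL17B libraries, but both were lower in every IL17B library than in every PBS library. Dcn had 19, 35 and 26 counts with IL17B and 55, 75 and 50 counts with PBS. Col1a1 had 282, 284 and 268 counts with IL17B and 358, 415 and 298 counts with PBS. Such a separation was found for 4.77% of all genes tested. The 4 markers of T and B cells summed to at most 0.243 CPM in any library, and the 2 neutrophil markers in the table, Mpo and Elane, were below the filter. Across the whole table, 0 of 13866 genes (0%) passed edgeR's quasi-likelihood test at a Benjamini-Hochberg adjusted p of at most 0.05, 726 had an unadjusted p under 0.05, DESeq2 called 6, and the median log2 fold change was 0.00.

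Hmga1 was abundant in every library, and its levels under the 2 treatments overlapped. The authors' estimated counts for Hmga1 were 7572.60, 7607.20 and 8134.00 in the IL17B libraries, against 8579.00, 7418.00 and 7840.00 in the PBS libraries. By counts the highest and the lowest library were both PBS libraries, PBS 1 and PBS 2, with the 3 IL17B libraries between them, while by TPM the lowest was IL17B 2 (447.46 TPM, against 449.96 TPM in PBS 2). In TPM, a level scaled for transcript length and library, Hmga1 averaged 468 ± 22.1 with IL17B and 475 ± 27.5 with PBS (SD, n = 3 each), which put it at rank 288 of the 16977 genes with a TPM above 0. In CPM it averaged 380 ± 14.5 with IL17B and 387 ± 28.6 with PBS. The fitted log2 fold change was -0.03 (SE 0.06), a difference smaller than the spread between replicates, and the highest library was 1.16 times the lowest in CPM. In bulk RNA, fewer cells that hold a transcript and less of it per cell cannot be told apart.

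Hmga1b had counts in all 3 IL17B libraries and in none of the PBS libraries. Its estimated counts were 48.40, 44.78 and 113.00 with IL17B and 0.00, 0.00 and 0.00 with PBS. Its TPM was 3.20, 2.83 and 7.34 with IL17B (4.46 ± 2.50, SD, n = 3), and it is listed at 0 in the 3 PBS libraries. The groups did not overlap, and IL17B 3 had more than the other IL17B libraries together. Of all 13866 genes tested, 9.92% had treatments that did not overlap and 5.16% had IL17B libraries that all lay above the PBS libraries. A count of 0 in every PBS library beside counts in every IL17B library was found for 8 genes (0.0577%), and the reverse for 1 gene (0.00721%). That pattern is what brought Hmga1b to attention, so its place among the 8 shows nothing further.

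A total of 3 counts across the 3 PBS libraries was taken as the most that their 0 allows for counting error. On that basis the estimated Hmga1b counts were at least 68.9-fold higher with IL17B. This bound takes the IL17B counts as given and leaves out the error of dividing reads between the genes. It is therefore no limit on the transcript itself. For each library on its own the same bound was 48.3-fold in IL17B 1, 45.1-fold in IL17B 2 and 113-fold in IL17B 3. The counts in IL17B 1, where the hepatocyte markers were at 0.343 CPM, were as high as those in IL17B 2, where they were at 199 CPM. The part of hepatocyte transcripts in the Hmga1b counts was not tested. Without IL17B 2 and IL17B 3 the bound was 48.3-fold, which restates that of IL17B 1. By mean TPM over the 6 libraries Hmga1b stood at rank 10459.

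**Figure D2:**
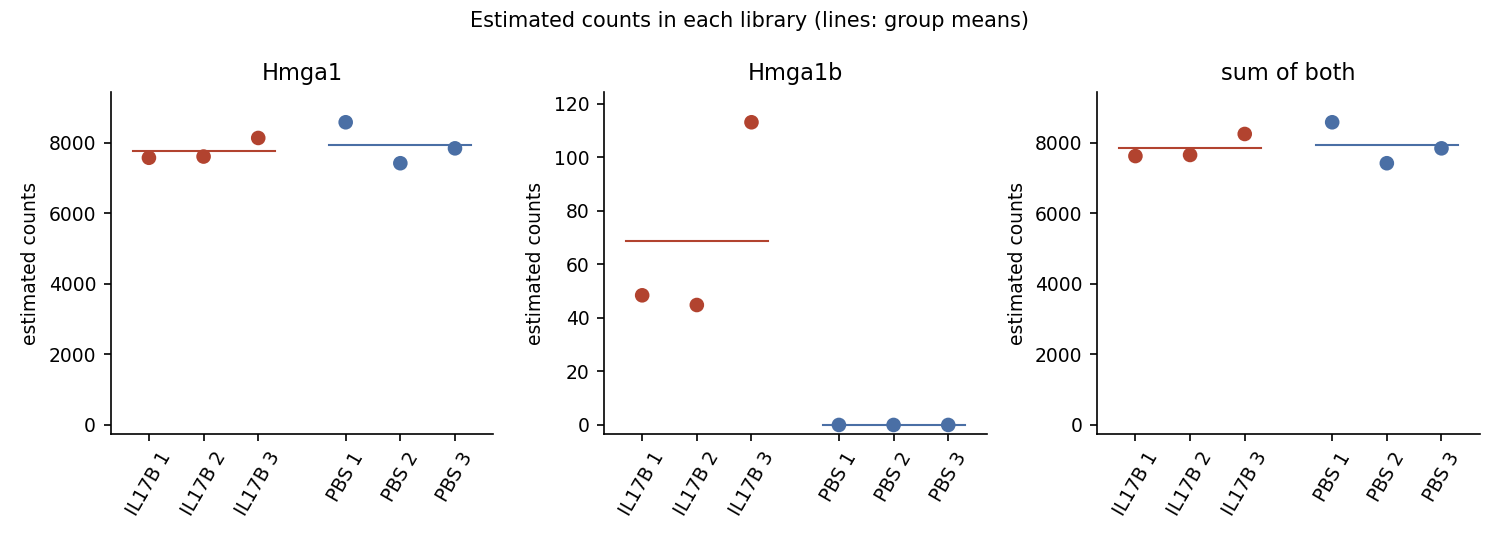
Estimated counts (y axis, each panel from 0 on its own scale) of Hmga1, Hmga1b and their sum in each of the 3 IL17B libraries (red, left) and the 3 PBS libraries (blue, right), with a line at each group's mean. Hmga1 and the sum overlap between treatments at 7418 to 8579 counts, whereas Hmga1b has 44.78 to 113 counts with IL17B and 0 with PBS.

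The sum of both genes hardly differed from Hmga1 alone. It was 7621.00, 7651.98 and 8247.00 counts in the IL17B libraries, against 8579.00, 7418.00 and 7840.00 in the PBS libraries. The treatments overlapped in the same way as for Hmga1. In CPM the sum averaged 383 ± 16.3 with IL17B and 387 ± 28.6 with PBS (SD, n = 3 each), with a fitted log2 fold change of -0.01 (SE 0.06). The direction of this small difference was not stable: leaving out PBS 1 gave 0.03 for Hmga1 and 0.05 for the sum, and without IL17B 2 and IL17B 3 the values were -0.06 and -0.05.

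Hmga1b held a small share of the counts of the pair. The share was 0.630% in IL17B 1 (exact Clopper-Pearson 95% interval 0.465 to 0.834%), 0.588% in IL17B 2 (0.429 to 0.786%) and 1.37% in IL17B 3 (1.13 to 1.65%). In the PBS libraries it was 0 of 8579, 0 of 7418 and 0 of 7840 counts. Taking 3 counts as the most that a count of 0 allows, the share is at most 0.0350%, 0.0404% and 0.0383%, and the exact 95% intervals end at 0.0430%, 0.0497% and 0.0470%. The shares in IL17B 1 and IL17B 2 lay within each other's interval and that in IL17B 3 above both. These intervals and limits cover counting error only, and not the error of dividing reads between the genes. Per length, the Hmga1 level in FPKM was 146, 157 and 67.1 times that of Hmga1b in IL17B 1, 2 and 3.

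**Figure D3:**
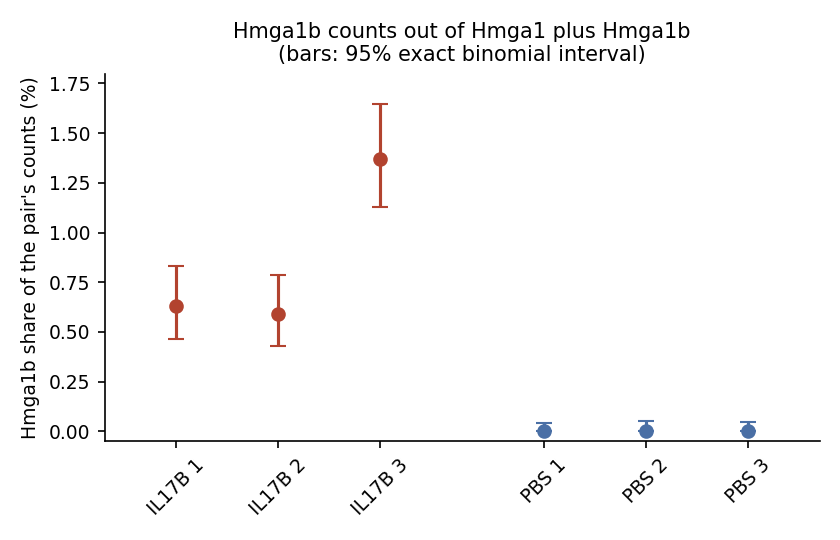
Counts of Hmga1b as a percentage of the counts of Hmga1 plus Hmga1b (y axis) in each IL17B library (red, left) and PBS library (blue, right), with exact 95% binomial intervals as bars. The IL17B libraries lie at 0.588 to 1.37% and the 3 PBS libraries at 0.

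The decimals of the counts were compared within the pair. RSEM, the program the authors used, can give a read that matches several genes in parts to each, which can leave a fraction in an estimated count. A whole count does not show that no read was divided. In IL17B 1 Hmga1 ended in 0.60 and Hmga1b in 0.40, and in IL17B 2 they ended in 0.20 and 0.78, so that the sums were 7621.00 and 7651.98. In IL17B 3, and in the PBS libraries where Hmga1b was 0, both counts were whole. The sum lay within 0.02 of a whole number in 6 of 6 libraries, the counts being deposited with 2 decimals. Over the whole table a whole count is common, at 64.1 to 65.1% of the genes with counts in a library and 67.7 to 69.3% of those with at least 1000 counts.

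Counts and FPKM together give the length over which the authors scaled each gene. This length was 1685 to 1691 bases for Hmga1 and 1564 to 1571 bases for Hmga1b in the libraries where it had counts. Both are far longer than the coding sequence of 321 bases, so the gene models held untranslated sequence, where the 3 substitutions lie. How many of the Hmga1b counts came from reads over a substitution cannot be read from a table of counts and was not tested.

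Near copies elsewhere in the table were examined for the same pattern. A near copy was a gene with at least 15 counts whose translated coding sequence was at least 95% identical, over 90% of both lengths, to that of a gene at another locus. Apart from Hmga1 and Hmga1b there were 269 such genes, of which 0 had 0 counts throughout 1 treatment and counts throughout the other. Only 6 of all 13489 other matched genes had that pattern, so 0 of 269 does not set near copies apart. A 0 in some library beside at least 10 counts in another was found in 34 of the 269 (12.6%). This compares with 188 of all 13489 other matched genes (1.39%). It was also found in 99 of the 8872 genes that share no window with another gene's protein-coding transcripts (1.12%). Among genes with at least 100 counts the shares were 10 of 208 (4.81%), 41 of 11465 (0.358%) and 21 of 7567 (0.278%). Among the 53 other genes with at least 80% of their windows in 1 gene at another locus, a grouping chosen after seeing the data, 0 had the pattern over a whole treatment and 8 (15.1%) had a 0 beside at least 10 counts. With the pattern so rare, 0 of 53 does not set this grouping apart.

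Of those genes, 8 others are single exons as Hmga1b is, and the ones named here were chosen after their values were seen. Amd2, a copy of the polyamine enzyme gene Amd1, had 6.40, 5.56 and 12.67 counts with IL17B and 21.24, 24.86 and 0.00 counts with PBS. Eif3j2, a copy of the translation factor gene Eif3j1, had 17.17, 40.29 and 0.00 counts with IL17B and 44.44, 10.07 and 22.02 counts with PBS. Both switched to 0 in 1 library, within a treatment. Rps27rt, a copy of the ribosomal protein gene Rps27, took 34.9, 30.3 and 35.0% of the counts of its pair with IL17B and 27.4, 20.8 and 58.1% with PBS. Over the 9 pairs the highest library for the sum of copy and partner was 1.11 to 1.31 times the lowest, and for Hmga1 with Hmga1b 1.16 times.

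**Figure D4:**
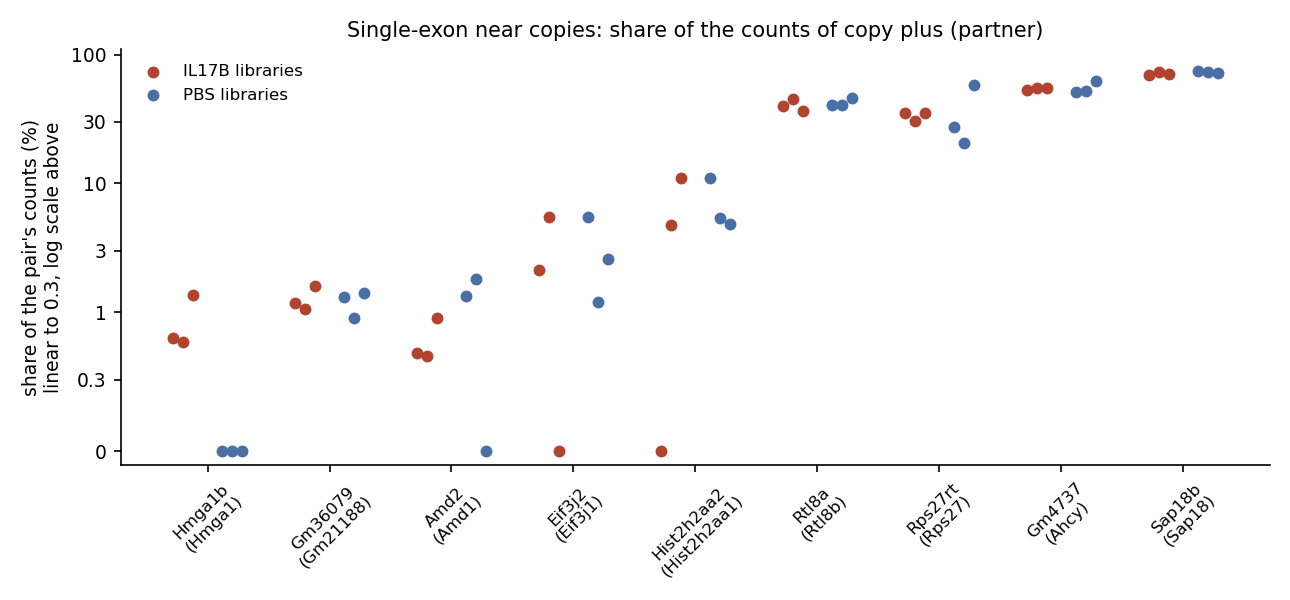
Share of the counts of copy plus partner that went to the copy (y axis in percent, linear up to 0.3 and logarithmic above) for the 9 single-exon near copies, the partner named in brackets, in the IL17B libraries (red, left of each name) and the PBS libraries (blue, right). Hmga1b is at 0 in all 3 PBS libraries, while Amd2, Eif3j2 and Hist2h2aa2 are each at 0 in a single library.

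Of the 13866 genes tested, 98 (0.707%) were at 0 in every PBS library, and 8 of these also had counts in every IL17B library. Hmga1b had 206 IL17B counts in all, the most of the 8. Among the others was Pzp, a protease inhibitor of the alpha-2-macroglobulin type, with 1, 148 and 42 counts in the IL17B libraries. Cyp1a2, a drug-metabolizing enzyme of hepatocytes, had 1, 22.99 and 15 counts, and Gm10651 had 18.26, 5.19 and 14.84 counts. Fbp1, a gluconeogenic enzyme of the liver, had 2, 23 and 7 counts, Car3, a carbonic anhydrase, 1, 13 and 10 counts, and Slc27a5, a bile acid ligase of the liver, 1, 16 and 4 counts. Pzp, Cyp1a2, Car3 and Slc27a5 were named after their values were seen. Of the 8, 6 had at most 2 counts in IL17B 1 and their highest count in IL17B 2, the library with the most hepatocyte transcripts, whereas Hmga1b and Gm10651 had their highest count in another library. By the lowest IL17B count the order after Hmga1b was Gm10651, Gabra2, a subunit of the GABA-A receptor (3.38, 2.14 and 3.35 counts), Fbp1 and Tac4, which encodes a tachykinin (3, 2 and 2 counts), with Hist1h1e, a linker histone gene, next (2.18, 1.77 and 3.30 counts). Gabra2, Tac4 and Hist1h1e had under 15 counts in all and were not tested. In the whole table, filter aside, 34 of 16978 genes (0.2%) had 0 counts in every PBS library and counts in every IL17B library, and 38 (0.224%) had the reverse, as Gm40514 did with 0 counts in each IL17B library and 6.57, 7.52 and 4 counts in the PBS libraries.

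The genes most like Hmga1 over the 6 libraries were found by the Pearson correlation of log2 CPM, over 11464 genes with a mean of at least 1 CPM. The 5 highest were Cers5, a ceramide synthase (r = 0.999), Glrx, a glutaredoxin (0.997), Wdr78 (0.995), Ube2c, a ubiquitin-conjugating enzyme of mitotic exit (0.994), and Ran, the GTPase of nuclear transport (0.991). These are the top of a long ranking over 6 points that share their normalization, and are a description. Ube2c was at 37.5, 38.7 and 50.1 CPM with IL17B and at 57.1, 34.7 and 43.4 CPM with PBS, so that PBS 1 was highest and PBS 2 lowest, as for Hmga1.

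Genes of the dividing cell had this order in part. The summed level of 24 proliferation genes was 1299, 1164 and 1466 CPM with IL17B and 1632, 1145 and 1255 CPM with PBS, again highest in PBS 1 and lowest in PBS 2. Over the 6 libraries Hmga1 had r = 0.889 with Top2a, the topoisomerase of chromosome separation, and 0.789 with Mki67, the marker of cycling cells. Whether dividing cells set the Hmga1 level was not tested. Between treatments 0 of the 24 genes passed edgeR's test, as did 0 of all 13866 tested. An unadjusted p under 0.05 was found for 0 of the 24, against 726 of the 13866. The median log2 fold change of the 24 was -0.05, against 0.00 over all genes. Pcna, the replication clamp, was the most abundant, at 305 ± 24.3 TPM with IL17B and 334 ± 46.5 TPM with PBS (SD, n = 3 each). Top2a averaged 65.3 ± 10.9 TPM with IL17B and 63.0 ± 12.6 TPM with PBS. Mki67 averaged 58.8 ± 11.8 and Rrm2, the ribonucleotide reductase subunit, 58.6 ± 7.41 TPM with IL17B, against 57.6 ± 9.81 and 55.5 ± 17.3 TPM with PBS.

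The other high mobility group genes were expressed below Hmga1 and, like every gene tested, did not pass the test. Of the 12 in the table, besides the pair, all 12 were tested and 0 passed edgeR's test as higher or lower. An unadjusted p under 0.05 was found for 1 of them (Hmgxb3), against 726 of all 13866 genes tested. The median log2 fold change of the 12 was -0.01 and their range -0.15 to 0.13. Hmgn2, a nucleosome-binding member, averaged 221 ± 13.6 TPM with IL17B and 229 ± 26.0 TPM with PBS (SD, n = 3 each). Its relative Hmgn1 averaged 110 ± 8.07 TPM with IL17B and 115 ± 6.35 TPM with PBS. Hmgb1, the DNA-bending protein that also acts as an alarm signal outside cells, averaged 105 ± 5.32 TPM with IL17B and 98.3 ± 7.23 TPM with PBS, and Hmgb2 averaged 95.6 ± 7.77 TPM with IL17B and 92.5 ± 12.4 TPM with PBS. Hmga2, the other gene of the AT-hook branch of the family, had a log2 fold change of 0.00 (SE 0.06). Hmgxb3, named after its values were seen, was the member whose treatments did not overlap, with a log2 fold change of -0.15 (SE 0.06). Of all genes tested, 4.77% were lower with IL17B without overlap.

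**Figure D5:**
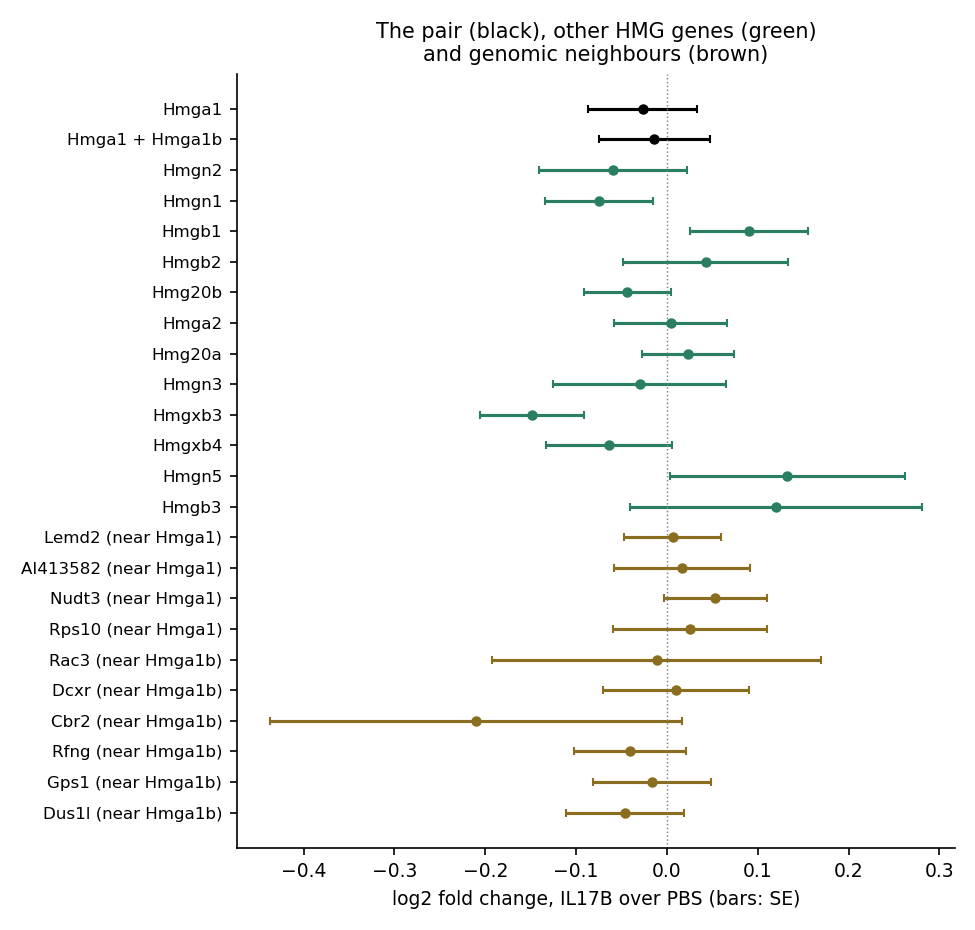
Log2 fold change of IL17B over PBS (x axis, bars are standard errors) for Hmga1 and the sum of the pair (black), the 12 other high mobility group genes in order of level (green) and the 10 tested genomic neighbours (brown). Every point lies between -0.21 and 0.13, and Hmga1b is left out because it was at 0 in the PBS libraries.

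Genes that HMGA1 is known to act with or on, mostly from human cells, were counted next. The table holds 27 of them, of which 24 were tested, with a median log2 fold change of 0.02. Of the 24, 0 passed edgeR's test, as did 0 of all 13866 genes tested. An unadjusted p under 0.05 was found for 4 of the 24, against 726 of the 13866. Cebpb, a transcription factor of myeloid cells, averaged 217 ± 10.8 TPM with IL17B and 249 ± 25.6 TPM with PBS (SD, n = 3 each), and Rela, the p65 subunit of NF-κB, 124 ± 1.56 TPM with IL17B and 120 ± 4.19 TPM with PBS. Nfkb1, which encodes the p50 subunit, had a log2 fold change of 0.02 (SE 0.05). Irf7, an interferon regulatory factor, averaged 74.6 ± 5.97 TPM with IL17B and 127 ± 83.4 TPM with PBS, so its spread lay in the PBS libraries. Il2ra, the interleukin 2 receptor alpha chain, was the 1 gene of the 24 whose treatments did not overlap (log2 fold change 0.43), against 9.92% of all genes tested, and was named after its values were seen. Ifnb1, the interferon beta gene of the enhancer described above, was below the filter.

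The other 3 genes of this list with an unadjusted p under 0.05, besides Cebpb, are genes of the liver, named after their values were seen. Rbp4, the retinol carrier, had 0, 94 and 30 counts in the IL17B libraries, against 0, 1 and 1 in the PBS libraries. G6pc, a glucose-6-phosphatase subunit, had 0, 27 and 11 counts with IL17B, against 0 in each PBS library, and Igfbp1 had 0, 19 and 7 with IL17B, against 0 in each PBS library. All 3 were at 0 in IL17B 1 and highest in IL17B 2, the order of the hepatocyte markers given above, and the part of those transcripts in their values was not tested. Hmga1b had another order, with its highest count in IL17B 3 and 48.40 counts in IL17B 1.

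The list of other AT-hook genes and linker histone genes had 17 genes in the table and 13 tested. The numbers that passed edgeR's test or had an unadjusted p under 0.05 were 0 and 0, against 0 and 726 of the 13866 tested. The median log2 fold change of the 13 was 0.04. Hist1h1c, a linker histone, was the most abundant, at 164 ± 13.2 TPM with IL17B and 146 ± 36.4 TPM with PBS (SD, n = 3 each). The linker histone H1f0 averaged 66.1 ± 0.360 TPM with IL17B and 61.7 ± 7.08 TPM with PBS. The AT-hook genes Akna and Baz2a averaged 40.4 ± 1.70 and 39.0 ± 1.68 TPM with IL17B, against 39.3 ± 1.86 and 38.7 ± 3.45 TPM with PBS.

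None of the nearest listed genes on either side of the pair had counts with IL17B only, as Hmga1b did. That pattern was found for 8 of all 13866 genes tested (0.0577%), so its absence does not set the neighbours apart. Of the 12 nearest genes listed in the expression table, 3 on each side of each locus, 10 had enough counts to test. Of these, 0 passed edgeR's test and 0 had an unadjusted p under 0.05, against 0 and 726 of all 13866 genes tested. The treatments overlapped for all 10. As 9.92% of all genes tested did not overlap, 0 of 10 does not set the neighbours apart. Genes absent from the expression table were not considered. Their log2 fold changes ran from -0.21 to 0.05 with a median of -0.00. On chromosome 11, Cbr2, a carbonyl reductase that ends 30769 bases before Hmga1b, had 37, 62 and 37 counts with IL17B and 50, 55 and 53 counts with PBS. Rfng, which modifies Notch receptors and starts 16353 bases after Hmga1b, had 560, 589 and 600 counts with IL17B and 603, 575 and 628 counts with PBS. The small GTPase gene Rac3 (-0.01, SE 0.18), the xylulose reductase gene Dcxr (0.01, SE 0.08), the COP9 signalosome gene Gps1 (-0.02, SE 0.06) and the tRNA dihydrouridine synthase gene Dus1l (-0.05, SE 0.06) are given by their log2 fold changes.

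On chromosome 17, AI413582 starts 97 bases after the RefSeq end of Hmga1. Its counts were 622, 729 and 707 with IL17B and 729, 647 and 666 with PBS. In GENCODE its transcripts run on the other strand and hold the reverse complement of 53 of the Hmga1b windows, so without strand the reads from that stretch cannot be told apart between AI413582 and the pair, and strand-specific counting is not stated in the sources used here. The ribosomal protein gene Rps10 (0.03, SE 0.08), the phosphohydrolase gene Nudt3 (0.05, SE 0.06) and Lemd2, a gene of the inner nuclear membrane (0.01, SE 0.05), are given by their log2 fold changes. The kinase gene Ip6k3 and the glutamate receptor gene Grm4 had at most 1 count in any library and were not tested. Grm4 ends 42748 bases, Lemd2 351104 bases and Ip6k3 388810 bases before Hmga1.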

How the data were processed

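Bulk RNAseq was done on BMDM given IL17B or PBS, 3 samples each. Per the labels and the study's methods, the authors filtered single-end 50-base reads, aligned them with HISAT2 2.0.4 and Bowtie2 2.2.5 to GRCm38.p6 and its genes, and made estimated counts per gene with RSEM 1.2.12. The deposited table holds these estimated counts, with FPKM and TPM values that the authors made in the same run. The submitters' notes also name DESeq2 1.4.5. Whether strand was used is not given in the sources used here.

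After rounding of the estimated counts, 13866 genes had a summed count of 15 or more and were fitted with edgeR 4.0.16 in R 4.3.3 (TMM, quasi-likelihood test, Benjamini-Hochberg adjusted p of at most 0.05). For the sum, the rows of both genes were added before the fit. CPM values are scaled by TMM library sizes. The depth, 20271450 to 20653371 counts per library, makes the counting error of Hmga1 small and that of Hmga1b wide. For Hmga1b, 3 counts in total stood in for the 0 of the 3 PBS libraries. Alternatives were DESeq2 1.42.0, limma 3.58.1 with voom or on log2(FPKM + 0.1), log2(FPKM + 1) and log2(TPM + 0.1), other normalizations, filters, a replicate block and each library left out.

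Transcripts, coding sequences and windows came from GENCODE M21, and gene positions and upstream stretches from RefSeq tables of GRCm38.p6, in which both genes matched by gene ID. Near copies were found from translated GENCODE coding sequences of all isoforms, in place of RefSeq proteins as first planned, with 16375 of 16978 genes matched by gene ID. An upstream window is 250 bases.

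The members and the gene lists were chosen with earlier results of these data known. Of each list the 4 most abundant genes are named, with any that passed the test, all genomic neighbours, the 5 genes most correlated with Hmga1 and the 5 other genes at 0 in PBS with the highest lowest IL17B count. The scripts were tested on simulated data. 1 gene at 0 in PBS is not reported here. Other data of the study are not analysed here.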

Additional observations from a re-analysis of the deposited data

How the results depend on the processing

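Leaving out each library in turn moved the log2 fold change of Hmga1 between -0.08 and 0.03, that of the sum between -0.06 and 0.05, and the log2 bound of Hmga1b between 5.52 and 6.34 (45.8-fold to 80.8-fold). The 3 counts that stand in for 0 were kept when a PBS library was left out. The bounds of 45.8-fold to 46.1-fold in those fits are therefore lower by construction. Hmga1 changed direction without PBS 1 (0.03), and the sum without PBS 1 (0.05) and, at 0.00, without IL17B 1 or IL17B 2. No other setting changed a direction for the pair. The bound of Hmga1b is a ratio of summed counts over scaled library sizes and uses no fitted model, so the DESeq2, voom and replicate block fits leave it at 68.9-fold by construction. FPKM and TPM hold no counts and give no bound.

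The count of genes called over the whole table was 0 with edgeR, 6 with DESeq2, 1 with limma on log2(FPKM + 0.1), 1 with limma on log2(TPM + 0.1) and between 0 and 86 with a library left out, the 86 without IL17B 1 (77 higher, 9 lower). Same-numbered libraries did not deviate together (correlations of -0.03, 0.02 and -0.08 over 11466 genes). No label pairs the samples, and these values cannot show whether same-numbered samples shared an animal or a culture. With the replicate block 76 genes were called (74 higher, 2 lower). Of the HMGA1 partner and target genes 2 were called with the replicate block (G6pc and Rbp4) and between 0 and 1 with a library left out (Rbp4 without IL17B 1). The cause was not tested. The share of Hmga1b windows found in Hmga1 was 98.5% with up to 2 mismatches, against 89.0% without, by construction. Over the 3 IL17B libraries the mean Hmga1b share of the pair was 0.863% by counts and 0.927% by FPKM or TPM. Without IL17B 2 and IL17B 3, chosen after seeing the data, IL17B 1 is the lone IL17B library, assumed to vary like the PBS libraries. Depth limits Hmga1b, which had 44.78 to 113 counts per IL17B library, and how shared reads were divided was not tested.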
